A study of Mus musculus with 9 samples.

Results

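The genes described here encode the proteins of the cytosolic ribosome. They were taken by symbol, as genes named Rpl or Rps with a number, Rplp0 to Rplp2 and Rpsa, with at least 10 counts in at least 4 libraries, which kept 84 of 87 matching symbols among the 33211 genes measured. The large subunit accounted for 46 of them, the small subunit for 35 and the P-stalk for 3. Hepatic mRNA was sequenced in male C57BL/6 mice (C57BL6/J in the study's methods), a standard inbred strain, that were 8 weeks old when they started a high-fat diet (HFD) and ate it for 7 weeks. All the mice received the same purified lard-based diet, and the groups differed in how it was kept for 7 days before use. It had been stored in a freezer at -20 °C (HFDfre, n = 5) or in a fridge at 4 °C (HFDfri, n = 4). The comparison asks what diet storage does to the hepatic transcriptome, and no group on a normal diet is part of it. Nothing in the labels says that animals were pooled, and the p-values measure the spread between these libraries. Values after ± are SDs over the 5 or 4 libraries of a group, except beside a log2 fold change, where they are standard errors.

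A ribosome has a small subunit, which decodes the mRNA, and a large subunit, which joins amino acids. Each is built from ribosomal RNA and a set of proteins that cells make in near-equal numbers, so the mRNAs of ribosomal proteins are usually abundant and steady. Many of them begin with a terminal oligopyrimidine (TOP) tract, a run of C and T bases at the cap through which mTORC1 and LARP1 set their translation. The liver, which secretes most plasma proteins, depends on a large ribosome pool, and single ribosomal protein mRNAs such as Rplp0, known to many laboratories as 36b4, serve as RT-qPCR references.

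The primers of the study's RT-qPCR assays are shown because they fix which transcripts stand behind assays named after ribosomal proteins. All are printed in 5′ to 3′ direction, in lower case with nothing marked.
36b4 forward: gaggaatcagatgaggatatggga
36b4 reverse: aagcaggctgacttggttgc
RPs3 forward: agagagttgaccgcagttgt
RPs3 reverse: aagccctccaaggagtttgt
Rpl13 forward: gtggaaactcccccaatggt
Rpl13 reverse: cgtagaggaagcagacgcat
Rpl15a forward: ttctggcggatgctctcaag
Rpl15a reverse: acgccacacttgttcaacct
Exact matches to the GENCODE M21 transcripts (GRCm38) placed the 36b4 pair on Rplp0 alone, with a product of 72 bases, from 1034 to 1105 of its principal transcript. The RPs3 pair matched Rps3 alone, with a product of 141 bases. The pair listed as Rpl13 did not match Rpl13. Both of its primers matched Rpl3, which encodes another large-subunit protein, and the pseudogene Rpl3-ps1, with a product of 287 bases. The pair listed as Rpl15a matched Rps15a, a small-subunit gene, and its pseudogenes Rps15a-ps6 and Rps15a-ps7. The Rps13 and Rpl27a pairs matched their own genes together with pseudogenes.

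The start sites of 3 members are shown for the TOP tract. Each window of 30 bases runs from 10 bases before to 20 bases after a RefSeq transcription start (GRCm38.p6), and capitals mark a run of at least 6 C or T bases that opens with C within 5 bases of the start.
Rpl38, chr11:114668570-114668599, plus strand: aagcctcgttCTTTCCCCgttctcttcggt
Rps27, chr3:90213629-90213658, minus strand: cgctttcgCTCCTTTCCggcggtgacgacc
Rplp0, chr5:115559457-115559486, plus strand: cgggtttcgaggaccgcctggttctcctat
Such a run was found in 26 of the 60 members with a promoter entry (43.3%), on the strand that reads like the RNA. Among the 26682 other genes with an entry 3169 held one (11.9%). Rplp0 has no such run in this window, which says only that these letters are not there at the listed start.

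The identity of some members needs a remark. The row with the symbol Rpl24 carries ENSMUSG00000022601, which is Zbtb11 in GENCODE M21, at 6.93 to 12.2 CPM, counts scaled to the library total, in each library. Rpl24 itself (ENSMUSG00000098274) stands under a symbol in capitals that the rule does not take, with a mean of 192 ± 18.5 CPM on HFDfre and 165 ± 37.8 CPM on HFDfri. Rps3a2, Rps3a3 and Rps4y2 are annotated as processed pseudogenes. Leaving these 4 rows out gives 80 coding members, 45 of the large subunit, 32 of the small subunit and 3 of the P-stalk. Of the 80, 74 share at least 1 stretch of 100 bases with another annotated gene. In 30 members, over 50% of all 100-base stretches along the principal transcript are shared. Among members named below, this share was 91.6% in Rpl10, 87.1% in Rpl10a, 87.0% in Rpl9 and 78.9% in Rpl13. It was 83.6% in both Rps6 and Rpl36a, whereas Rps27l and Rps3 shared no such stretch. How the deposited counts treated reads from shared stretches is not stated, so values of single members with much shared sequence are uncertain.

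Depth was even, with totals from 58614917 to 69353439 counts per library, but composition was not. Mitochondrial transcripts made up 15.4% ± 3.04 of HFDfre and 10.6% ± 2.07 of HFDfri counts, and Gm26924, a ribosomal RNA-like locus, made up 0.466% to 11.1%. The library HFDfri 1 stood apart from the other HFDfri libraries in the members. Of the 84 members, 80 lay above their own mean there, against 11, 22 and 31 in HFDfri 2, 3 and 4. It was singled out by the members' own values, so an adjusted p without it is no independent support. Values without it are given beside those with it for the genes of small proteins and for Rps4x. Summed over 8 hepatocyte markers, none of which was at 0, the HFDfre libraries held 94322 to 101288 CPM and the HFDfri libraries 83623 to 108384 CPM, with HFDfri 1 the highest. The 8 liver endothelial markers were lowest in HFDfri 1, at 70.4 CPM, and highest in another HFDfri library, at 118 CPM. HFDfri 1 was also the lowest library in 8 stellate cell and fibroblast markers, at 102 CPM, and the highest in 6 cholangiocyte markers, at 47.0 CPM. The part of cell composition in the members' levels was not tested, and in whole liver, fewer cells of a type and less RNA per cell cannot be told apart.

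No ribosomal protein gene was called different between the diets. None of the 84 passed an adjusted p of 0.05, while 150 of the 14220 genes tested (1.05%) did so, 0.499% higher and 0.556% lower in HFDfri. The lowest adjusted p of a member was 0.111, for Rps4x. The median log2 fold change, HFDfri minus HFDfre, was -0.03 over the members and -0.01 over all tested genes, with 32 members above 0 and 52 below. The members ranged from -0.45 to 0.42. At an unadjusted p under 0.05, 7 members were higher in HFDfri, which is 8.33% of them against 11.4% of all genes, and 4 were lower, which is 4.76% against 9.79%. DESeq2 put 2 members past its adjusted threshold, Rps4x higher and Rps27l lower, beside 7.26% of all genes.

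The intervals of single members were narrow. The median standard error was 0.12 on the log2 scale, and the 95% interval lay within a 1.5-fold change in either direction for 68 of the 84 members and within a 2-fold change for 83. The same held for 6614 and 10256 of the 14220 genes. A change of more than 2-fold in either direction therefore lay outside the interval of 83 members, and a change of more than 1.5-fold outside that of 68. Smaller shifts were not resolved in most members. The 80 coding members divided unevenly about 0. The large subunit had 13 above and 32 below, with a median of -0.05, and the small subunit 14 above and 18 below, with a median of -0.01. All 3 P-stalk genes were above 0, with a median of 0.05.

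**Figure D1:**
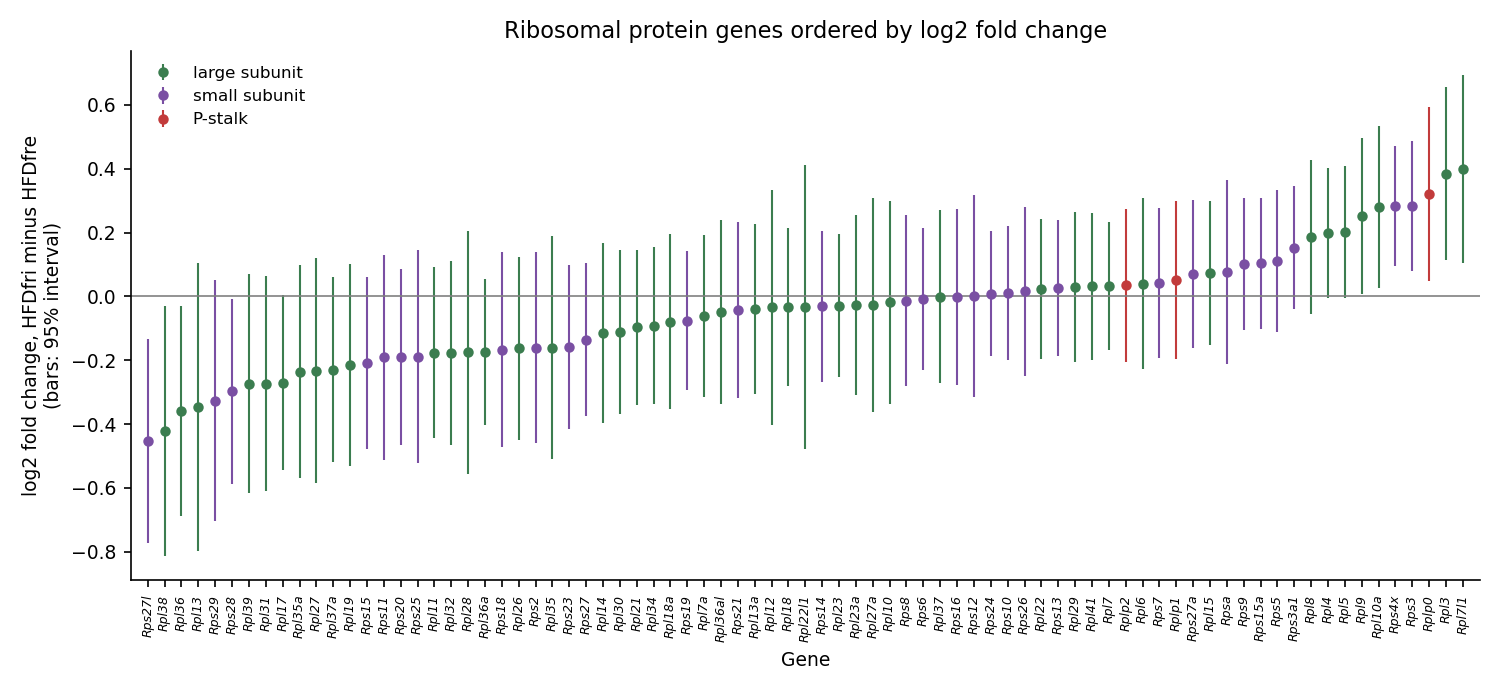
Log2 fold change (HFDfri minus HFDfre, vertical axis) of 79 of the 80 coding ribosomal protein genes, ordered along the horizontal axis and coloured by subunit, with 95% intervals from edgeR as bars. Values run from -0.45 (Rps27l) to 0.40 (Rpl7l1), and no gene passed an adjusted p of 0.05.

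Together the members made up 1.25% ± 0.0851 of all HFDfre counts and 1.26% ± 0.0766 of all HFDfri counts, a ratio of 1.01. The HFDfre libraries ran from 1.17% to 1.37% and the HFDfri libraries from 1.17% to 1.35%, so the groups lay on top of each other. The share depends on what it is taken of. Of the counts without mitochondrial genes and Gm26924, both of which were lower on average in HFDfri, the members took 1.58% ± 0.0897 in HFDfre and 1.45% ± 0.115 in HFDfri, a ratio of 0.918.

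The members moved together from library to library. The median member deviated from its own mean by 0.21, -0.09, -0.06, -0.03 and 0.10 (log2 CPM) in HFDfre 1 to 5. In HFDfri 1 to 4 the median deviation was 0.25, -0.24, -0.09 and -0.07. The group means of these values were 0.03 ± 0.13 and -0.04 ± 0.21. The highest and the lowest of the 9 libraries were thus both HFDfri libraries, and HFDfre 1 was next to the top with 72 of 84 members above their mean. The scaling factors by TMM, the normalization used for CPM, were lowest in the same 2 libraries, at 0.861 in HFDfre 1 and 0.909 in HFDfri 1, against 0.983 to 1.09 in the others. The part of this scaling in the members' levels was not tested.

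**Figure D2:**
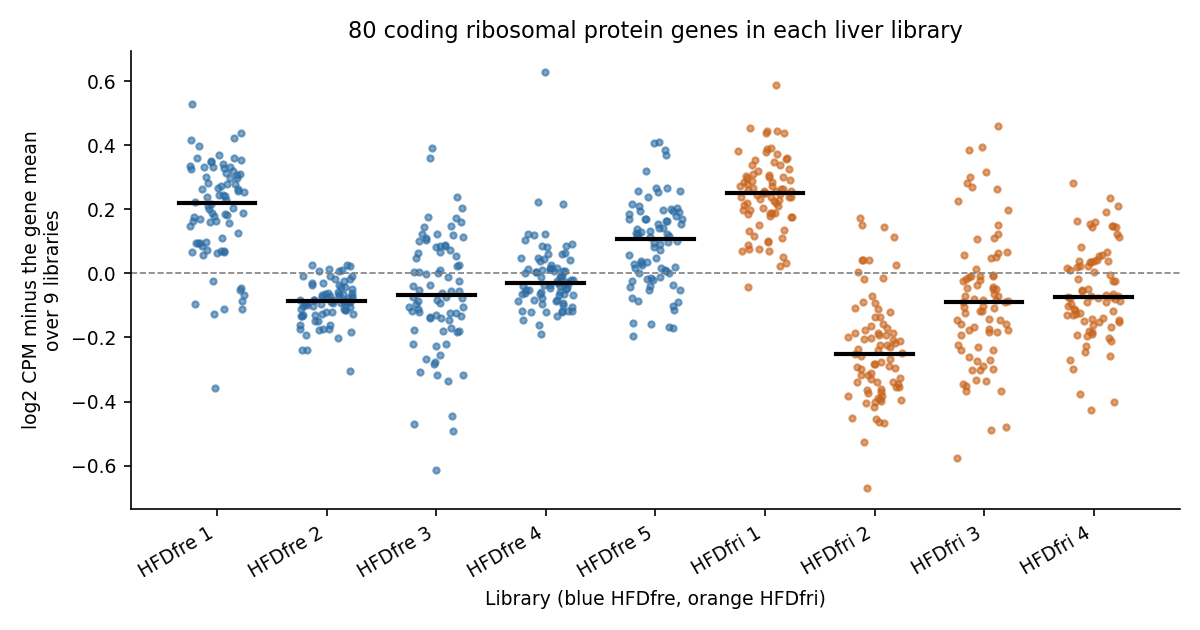
Deviation of each of the 80 coding members from its own mean over the 9 libraries (log2 CPM, vertical axis), by library, with HFDfre in blue and HFDfri in orange and the median as a black line. HFDfre 1 and HFDfri 1 lie highest and HFDfri 2 lies lowest.

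Without HFDfri 1 the picture changed. With the remaining 8 libraries, 9 members passed the adjusted threshold (edgeR), 8 of them lower in HFDfri (Rpl38, Rps27l, Rps29, Rpl36, Rpl27, Rps28 and Rpl17 among them) and Rps4x higher. This was set against 7.65% of all genes, with 3.66% lower and 3.99% higher. The median of the members then was -0.16, with 17 above 0 and 67 below, and 32 members were lower at an unadjusted p under 0.05 beside 12.9% of all genes. Of the other 8 libraries, none when left out brought a member past the adjusted threshold. Apart from Rps27l, none of the 8 lower genes was called in another setting that was run. The share of Gm26924 as a batch (libraries over and under 3%) brought 3 members past the adjusted threshold, Rplp0 and Rpl3 higher and Rps27l lower, beside 3.38% of all genes. Library totals without mitochondrial genes and Gm26924 brought 1 past it, Rps27l, beside 2.03% of all genes, and put 26 members lower at an unadjusted p under 0.05, beside 15.2%.

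The largest differences on the lower side were mostly in genes for small proteins. Rps27l (ENSMUSG00000036781, chromosome 9, 66946086 to 66949516, plus strand, GRCm38) encodes a paralog of the small-subunit protein Rps27 and is known as a p53 target. It was at 159, 119, 163, 128 and 168 CPM in HFDfre 1 to 5 and at 139, 98.5, 90.3 and 103 CPM in HFDfri 1 to 4. HFDfri 2, 3 and 4 lay below every HFDfre library, and HFDfri 1 lay among them. The log2 fold change was -0.45 ± 0.15 (SE), with a 95% interval from -0.77 to -0.13 and an adjusted p of 0.119. The same difference passed the threshold with DESeq2 (adjusted p = 0.0447), and without HFDfri 1 the log2 fold change was -0.61 (edgeR, adjusted p = 0.0241).

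Rpl38 (ENSMUSG00000057322, chromosome 11, 114668524 to 114672331, plus strand) encodes a large-subunit protein known for its part in the translation of Hox mRNAs. Its levels were 64.0, 46.8, 66.6, 50.1 and 67.4 CPM in HFDfre 1 to 5. In HFDfri they were 63.7 CPM in HFDfri 1 and 36.8, 36.5 and 39.2 CPM in HFDfri 2, 3 and 4. The other 3 HFDfri libraries sat together below the lowest HFDfre library, whereas HFDfri 1 sat at the upper HFDfre values. The log2 fold change was -0.42 ± 0.18 (adjusted p = 0.209), and without HFDfri 1 it was -0.67 (adjusted p = 0.0229). Over 24 alternative settings it ran from -0.67 to -0.10. Rps29, whose product is a zinc-binding protein of the small-subunit head, had the same layout, with 51.9 to 74.3 CPM in HFDfre, 70.9 CPM in HFDfri 1 and 41.9 to 43.6 CPM in the other HFDfri libraries. Its log2 fold change was -0.33 ± 0.17 (adjusted p = 0.307), and -0.56 without HFDfri 1 (adjusted p = 0.0303). Over the same settings it ran from -0.56 to -0.06.

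Rpl36, which encodes another small protein of the large subunit, was at 104 to 156 CPM in HFDfre, 124 CPM in HFDfri 1 and 79.0 to 93.6 CPM in the other HFDfri libraries, a log2 fold change of -0.36 ± 0.15 (adjusted p = 0.202). Without HFDfri 1 it was -0.52 (adjusted p = 0.0358), and over the 24 alternative settings it ran from -0.52 to 0.04. Rpl13 was the noisiest of these genes. Its levels were 121, 110.2, 126, 169 and 98.3 CPM in HFDfre and 142, 68.7, 100.4 and 81.4 CPM in HFDfri, and the groups overlapped. Its log2 fold change was -0.35 ± 0.21, with an interval from -0.80 to 0.10 (adjusted p = 0.364), and without HFDfri 1 it was -0.59 (adjusted p = 0.0575). Rps28, which was picked after its values were seen, was at 38.9 ± 4.72 CPM in HFDfre and 31.6 ± 5.97 CPM in HFDfri. The log2 fold change of Rps28 was -0.30 ± 0.13 (adjusted p = 0.226). Without HFDfri 1 it was -0.44 (adjusted p = 0.0478), and over the alternative settings it ran from -0.44 to -0.01.

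The largest differences on the higher side were in genes for longer proteins. Rpl3 (ENSMUSG00000060036, chromosome 15, 80077791 to 80091868, minus strand) encodes a protein that reaches into the peptidyl transferase centre. It was at 121, 131, 84.0, 124 and 115 CPM in HFDfre 1 to 5 and at 139, 142, 168 and 151 CPM in HFDfri 1 to 4. All HFDfri libraries lay above all HFDfre libraries, and HFDfre 3 lay well below the rest of its group. Its log2 fold change was 0.38 ± 0.12 (adjusted p = 0.120). Of the transcript of Rpl3, 79.4% lies in stretches shared with other annotated genes.

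Rps3 (ENSMUSG00000030744, chromosome 7, 99477896 to 99483738, minus strand), whose protein lines the mRNA entry channel, shares no such stretch. It was at 138, 131, 120.2, 146 and 149 CPM in HFDfre and at 154, 161, 186 and 165 CPM in HFDfri. Again the groups did not overlap, although HFDfre 5 and HFDfri 1 were close. This gave a log2 fold change of 0.28 ± 0.09 (adjusted p = 0.126).

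Rps4x (ENSMUSG00000031320, chromosome X, 102184941 to 102189394, minus strand) encodes an X-linked small-subunit protein. Its levels were 129, 114, 109.6, 125 and 123 CPM in HFDfre and 133, 145, 157 and 149 CPM in HFDfri. The spread within each group was small, and the lowest HFDfri library lay just above the highest HFDfre library. The log2 fold change was 0.28 ± 0.09 (adjusted p = 0.111), and 0.31 without HFDfri 1 (adjusted p = 0.0415). Rpl4, named here after its values were seen, was the last member without overlap, at 274 to 342.2 CPM in HFDfre and 342.4 to 382 CPM in HFDfri. In all, 4 members were higher in HFDfri without overlap between the groups and 0 were lower, beside 4.02% and 3.66% of all genes (7.69% together).

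Rpl7l1, a paralog of Rpl7 whose product acts in assembly of the large subunit, had the largest positive difference of the coding members. It was at 35.1, 38.1, 36.1, 47.8 and 43.8 CPM in HFDfre and at 55.8, 39.5, 61.9 and 54.7 CPM in HFDfri. HFDfri 2 lay within the HFDfre range and the other HFDfri libraries lay above it. Its log2 fold change was 0.40 ± 0.14 (adjusted p = 0.133). Rpl10a and Rpl9, again named after their values were seen, had log2 fold changes of 0.28 and 0.25, with adjusted p of 0.201 and 0.223.

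**Figure D3:**
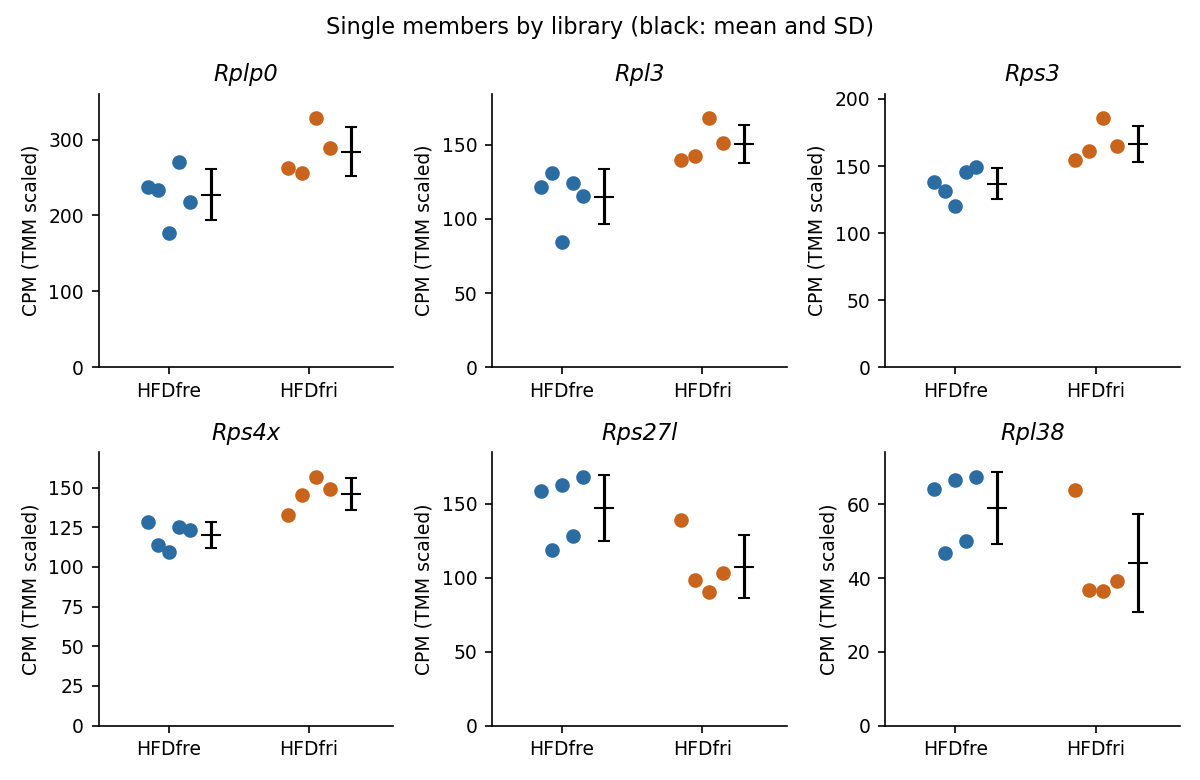
CPM (TMM scaled, vertical axes from 0) of 6 members by library, with HFDfre in blue, HFDfri in orange and the group mean and SD in black. Rpl3, Rps3 and Rps4x do not overlap between the groups, whereas for Rps27l and Rpl38 HFDfri 1 lies within the HFDfre range.

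Rplp0, the base of the P-stalk that recruits elongation factors, was the study's RT-qPCR reference together with Tbp, the TATA-binding protein of the general transcription machinery. Rplp0 (ENSMUSG00000067274, chromosome 5, 115559467 to 115563727, plus strand) was at 238, 234, 177, 271 and 218 CPM in HFDfre 1 to 5 and at 263, 257, 328 and 289 CPM in HFDfri 1 to 4. HFDfre 4 lay within the HFDfri range, and the others lay below it. The difference was 0.32 ± 0.13 on the log2 scale, with an interval from 0.05 to 0.59 (adjusted p = 0.177). Tbp was at 16.1 ± 1.24 CPM in HFDfre and 16.0 ± 3.14 CPM in HFDfri. Up to 19.0% of its annotated exon bases overlap Pdcd2 on the opposite strand, and the use of strand in counting is not stated.

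The ratio of the reference mRNAs is the quantity by which a choice between them would move a normalised result. Rplp0 over Tbp was 14.8, 13.9, 10.02, 18.5 and 14.4 in HFDfre and 15.5, 18.4, 16.4 and 21.9 in HFDfri. The mean was 14.3 ± 3.02 against 18.04 ± 2.84, a log2 difference of 0.35 (2-sided exact permutation p = 0.111, adjusted over 5 ratios 0.179). Over 126 splits the smallest p this design can give is 0.00794. The spread within groups was alike for both genes, with an SD of 0.200 and 0.199 on the log2 scale, below the median of 0.260 over all genes. The members as a set had a median within-group SD of 0.196. The other P-stalk genes, Rplp1 and Rplp2, were at 187 ± 22.1 and 193 ± 23.97 CPM and at 64.6 ± 7.55 and 66.2 ± 7.63 CPM in HFDfre and HFDfri, differences below the spread between libraries.

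The differences ran with the size of the encoded protein and with the length of its transcript. Spearman's correlation between log2 fold change and protein length was 0.55 across the 80 coding members, 0.36 across 75 mitochondrial ribosomal protein genes and 0.17 across 12957 other coding genes. For the length of the principal transcript it was 0.51, 0.24 and 0.23 across the same sets, and protein and transcript length were not separated. These are correlations across genes, which share the same 9 libraries and are not independent replicates. The 41 members of up to 151 amino acids had a median log2 fold change of -0.14, with 9 above 0 and 32 below. The 39 longer members had a median of 0.03, with 21 above and 18 below. All 7 members that were higher at an unadjusted p under 0.05 encode proteins of over 190 amino acids, and all 4 that were lower encode proteins of up to 132. These are 25.9% of the 27 members of 191 to 419 amino acids, beside 9.68% of the other coding genes of that length, and 14.8% of the 27 shortest members, beside 24.7% of the other short genes. The smallest product of all, the 25 residues of Rpl41, went against the order, with a log2 fold change of 0.03.

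Other short genes were mostly lower in HFDfri too. In genes for up to 132 amino acids the median was -0.14 for 27 members, -0.18 for 12 mitochondrial ribosomal protein genes and -0.18 for 665 other coding genes. In genes for 133 to 190 amino acids the medians were -0.08, -0.14 and -0.11. From 191 to 419 amino acids they were 0.08 over 27 members, -0.07 over 37 mitochondrial ribosomal protein genes and -0.03 over 4340 other genes. Of the short genes outside both ribosomes, 73.2% were below 0, beside 74.1% of the short members, and no test of a difference between these sets was run.

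By library, the median deviation of the long members minus that of the short ones was -0.09, 0.01, -0.14, 0.01 and -0.15 in HFDfre 1 to 5. It was -0.01, 0.11, 0.14 and 0.13 in HFDfri 1 to 4. HFDfri 1 lay within the HFDfre range and the other HFDfri libraries above it. When GC content and transcript length were fitted in each library as an offset, the contrast between long and short members was 0.11 instead of 0.17. The median of the members then was 0.08, with 20 higher and 0 lower at an unadjusted p under 0.05, beside 12.0% and 7.30% of all genes. No member passed the adjusted threshold in that fit, beside 0.956% of all genes. RNA integrity was not measured in these files, and its part was not tested.

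**Figure D4:**
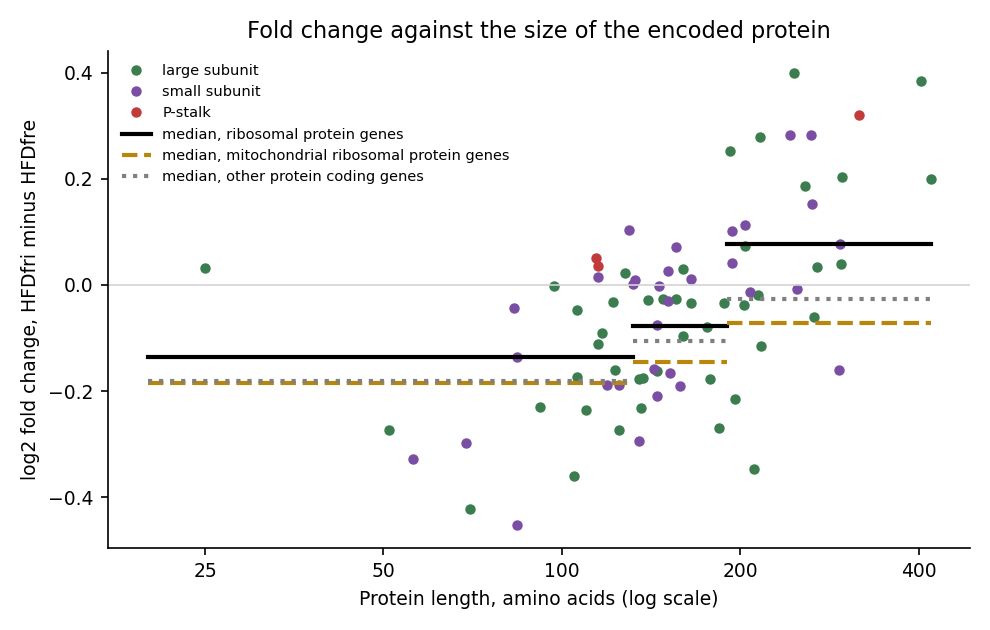
Log2 fold change (HFDfri minus HFDfre, vertical axis) of the 80 coding members against the length of the encoded protein (amino acids, log scale), coloured by subunit. Horizontal lines give medians in 3 length classes, and in the longest class the members' median (0.08) lies above those of the other coding genes (-0.03) and mitochondrial ribosomal protein genes (-0.07).

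Levels between members can be compared only per length. Counts divided by the exon length of the gene, scaled to the same total over all genes in each library, had a median of 144 over the 80 coding members. Rplp1 was highest, at 633 ± 89.1 in HFDfre and 722 ± 60.9 in HFDfri. It was followed by Rps15, which encodes a small-subunit head protein, with a mean over the 9 libraries of 511, Rpl36 with 503 and Rpl19 with 481. The last 3 did not differ beyond their spread, since their HFDfre values were 523 ± 66.9, 538 ± 60.2 and 494 ± 48.7. Rps2, which lies beside the mRNA entry channel, was next, at 398. With the length of the principal coding transcript in place of all annotated exons the median was 286, and Rpl10 (699) and Rps2 (623) stood above Rplp1 (573), so the order depends on which transcript is taken.

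Paralogs that can replace a standard ribosomal protein were mostly rare. Rpl10l had 0 counts in all libraries, Rpl3l had 0 to 9 counts, and Rpl39l had 23 counts in HFDfre 1, 11 in HFDfri 1 and 0 elsewhere, and these 3 were the symbols that the count minimum removed. Rpl22l1 was at 9.39 ± 1.23 CPM in HFDfre and 9.18 ± 3.27 CPM in HFDfri, beside 69.1 ± 8.61 and 70.3 ± 3.95 CPM of Rpl22. The ratio of Rpl36al to Rpl36a in CPM, which is not scaled to length, was 1.41 ± 0.0489 in HFDfre and 1.54 ± 0.127 in HFDfri. The row for Rps4y2, which GENCODE M21 calls Rps4l, a transcribed pseudogene, was at 15.6 ± 4.47 and 14.3 ± 4.36 CPM.

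Rps27l over Rps27 was 2.07, 1.73, 2.45, 1.89 and 2.26 in HFDfre 1 to 5 and 1.75, 1.83, 1.44 and 1.66 in HFDfri 1 to 4. The means were 2.08 ± 0.284 and 1.67 ± 0.169 (2-sided exact permutation p = 0.0476), and the p adjusted over the 5 ratios was 0.179. HFDfre 2 lay among the HFDfri values, and 98.4% of the transcript of Rps27 is shared with other annotated genes. For Rpl7l1 over Rpl7 the means were 0.180 ± 0.0290 and 0.233 ± 0.0497 (exact permutation p = 0.127, adjusted 0.179). The ratios of Rpl22l1 to Rpl22 (exact permutation p = 0.635) and of Rpl36al to Rpl36a (exact permutation p = 0.143) did not pass either.

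Rps6, Rpl5 and Rpl11 did not pass the test. Rps6, the small-subunit protein that S6 kinase phosphorylates, was at 293 ± 17.7 CPM in HFDfre and 292 ± 38.3 CPM in HFDfri. Rpl5 and Rpl11 form, with 5S rRNA, the particle that binds MDM2 and stabilises p53. Rpl5 was at 147 to 184 CPM in HFDfre and at 181 to 214 CPM in HFDfri, a log2 fold change of 0.20 ± 0.09 (adjusted p = 0.246). Of the annotated exon bases of Rpl5, 24.3% overlap Fam69a on the opposite strand. Rpl11 was at 234 to 306 CPM in HFDfre and at 200.3 to 284 CPM in HFDfri, a log2 fold change of -0.18 ± 0.12 (adjusted p = 0.440). Their groups overlapped, and their directions were opposite. Ribosome components whose symbols the rule does not take did not pass either. Fau, which encodes a small-subunit protein fused to a ubiquitin-like one, had a log2 fold change of -0.08, and Gnb2l1, the scaffold also called Rack1, had 0.19.

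Among the factors that build ribosomes most genes were higher in HFDfri. Of 101 tested biogenesis factors, which process ribosomal RNA and assemble the subunits, 2 rose and 0 fell past the adjusted threshold, 88 were above 0, and the median log2 fold change was 0.24. At an unadjusted p under 0.05, 38 were higher and 2 lower, beside 11.4% and 9.79% of all genes. These factors are long proteins, with a median of 533 amino acids over the 100 of known length. The 4954 other coding genes in the middle 50% of their length range (378 to 769 amino acids) had a median of 0.03, with 13.5% higher at an unadjusted p under 0.05, against 38% of the factors. By library the median deviation of the factors was -0.15, -0.15, -0.10, -0.01 and -0.09 in HFDfre 1 to 5 and 0.27, -0.12, 0.37 and -0.000881 in HFDfri 1 to 4. HFDfri 1 and HFDfri 3 lay far above every HFDfre library, and HFDfri 2 lay within the HFDfre range. Without HFDfri 3 the number higher at an unadjusted p under 0.05 was 19.

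The 2 factors that passed were Tsr1 and Ddx27. Tsr1 (chromosome 11, 74898071 to 74909342), which acts late in maturation of the small subunit, was at 3.70, 5.76, 5.34, 5.53 and 4.07 CPM in HFDfre and at 18.7, 9.31, 24.02 and 7.78 CPM in HFDfri. All HFDfri libraries lay above all HFDfre libraries, with HFDfri 1 and 3 highest. For Tsr1 the log2 fold change was 1.61 ± 0.30 (adjusted p = 0.0354). Over 32.3% of its exon bases Tsr1 overlaps Srr on the opposite strand, and Srr was at 71.4 ± 4.68 and 73.0 ± 15.2 CPM. Ddx27 (chromosome 2, 167015193 to 167034947), an RNA helicase of large-subunit assembly, was at 13.9 to 14.8 CPM in HFDfre and at 21.6, 16.6, 23.8 and 19.2 CPM in HFDfri. Its log2 fold change was 0.51 ± 0.11 (adjusted p = 0.0491). Neither passed with limma-voom (adjusted p = 0.0635 and 0.0578), and when any 1 of the 5 HFDfre libraries or HFDfri 3 was left out, neither of them passed.

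Other lists around the ribosome held no gene past the adjusted threshold. Their counts at an unadjusted p under 0.05 stand beside 11.4% of all genes higher and 9.79% lower. The list for the RNA polymerase I machinery, which transcribes ribosomal RNA, also held the transcription factors Myc, Mycn and Max. In this list 15 of 18 genes were above 0, with a median of 0.19, and 4 were higher and 1 lower at that level. The lower gene was Myc, which is not a part of the polymerase. Genes of ribosome quality control and rescue had 20 of 25 above 0 and a median of 0.16, with 8 higher and 0 lower. For RNA polymerase III and 5S rRNA the median was 0.08 over 21 genes, with 4 higher and 2 lower. The mTORC1 pathway and the control of TOP mRNAs had 22 of 40 genes above 0 and a median of 0.04, with 9 higher and 2 lower. The other TOP mRNAs, mostly translation factors, had 14 of 24 above 0, a median of 0.08, and 8 higher and 0 lower. The 77 mitochondrial ribosomal protein genes had 22 above 0 and 55 below, with a median of -0.10, and 4 higher and 11 lower at an unadjusted p under 0.05.

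**Figure D5:**
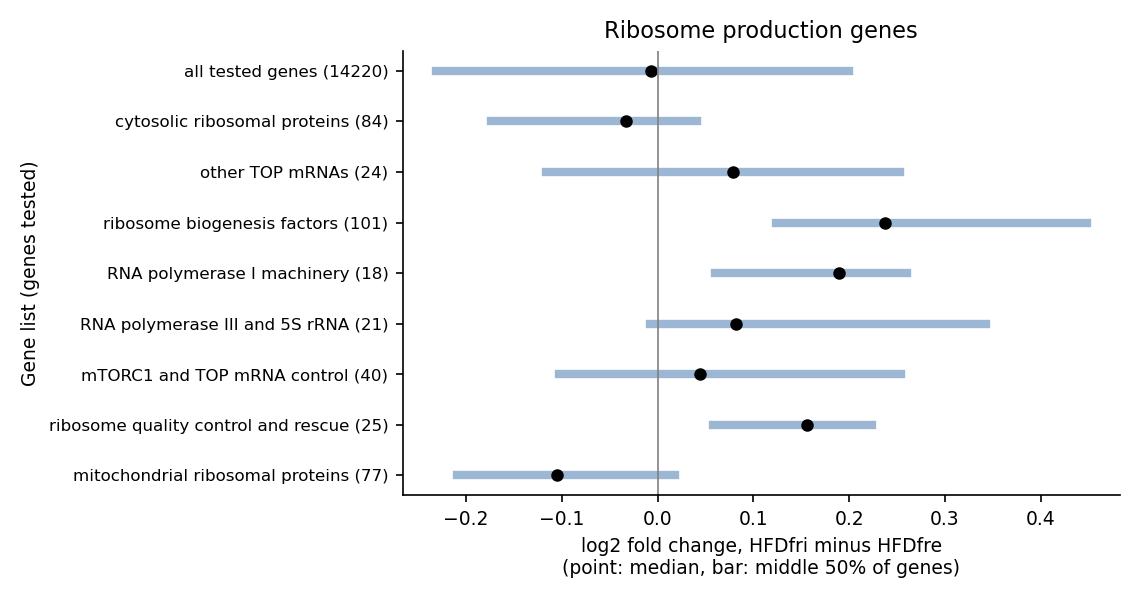
Log2 fold change (HFDfri minus HFDfre, horizontal axis) of the ribosomal protein genes beside lists of genes for ribosome production, with the median as a point and the middle 50% of the genes as a bar. The biogenesis factors have a median of 0.24, and the cytosolic ribosomal protein genes a median of -0.03.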

How the data were processed

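Liver RNA-seq of 9 mice was used. The study's methods name HISAT2 both for aligning the paired-end reads of 150 bases and for their quantification, and the submitters' processing notes also name StringTie and mm10. The annotation, the counting options and whether strand was used are not given in the sources used here, and the library kit is NEBNext Ultra in the labels but KAPA RNA HyperPrep in the methods. The values the authors deposited are estimated counts per gene, whole numbers with no scaling between libraries. Small values are often multiples of 4 (3990 gene and library pairs at the value 4, 2172 at 3 and 1840 at 5), so counting error is modelled only approximately. Identifiers were matched to GENCODE M21 (GRCm38; 96.5% of genes). Start sequences are from RefSeq (GRCm38.p6) and primers from the study's supplement.

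Counts were left as they were by rounding. The quasi-likelihood test of edgeR 4.0.16 (R 4.3.3) with TMM and filterByExpr was fitted on all 9 libraries and 14220 genes, as HFDfri minus HFDfre with no covariate. P-values were adjusted by Benjamini-Hochberg over all tested genes at 0.05. All 84 members passed the filter. The standard error is the size of the log2 fold change divided by the square root of F. CPM values are TMM scaled and log2 CPM used a prior count of 2. Group values are mean ± SD. The study used DESeq2 (1.42.0 here), which was run as an alternative beside limma-voom (limma 3.58.1), other scalings, filters, robust dispersion, a replicate term, each library left out, and terms for the Gm26924 share. Corrections for GC content and length (splines with 5 degrees of freedom), counts divided by 4 and the contrast by protein length were added after the data were seen. Ratios of paralogs were compared with exact permutation tests. The edgeR script was tested on simulated data.

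The members and lists were chosen with earlier results of these data known. The genes named are the 5 largest and 5 smallest log2 fold changes among members at or above 1 in mean log2 CPM, the 5 highest levels per length, Rplp0 with Tbp, paralogs with their partners, Rps6, Rpl5 and Rpl11, and up to 3 genes per context list past the adjusted p. Others are said to be picked after their values were seen. Results on 2 genes are not reported here, and 1 of them is left out of the plot of ordered fold changes.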

Additional observations from a re-analysis of the deposited data

Results flagged for a closer look

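In 5 of 66 sets of values (33 measures in each group) the highest or lowest library stood apart from the rest of its group by Dixon's test, where chance flags about 1 in 20, or 3.30 sets. Rpl38 in HFDfri 1 was high, at 5.99 log2 CPM against 5.19 to 5.29 in the other HFDfri libraries. Rps29 in HFDfri 1 was high, at 6.15 against 5.39 to 5.45. Rpl22, the partner of Rpl22l1, was low in HFDfri 2, at 6.01 against 6.16 to 6.19. Rpl3 was low in HFDfre 3, at 6.39 against 6.85 to 7.03. Rps15a, a small-subunit gene, was high in HFDfre 5, at 6.15 against 5.96 to 6.01. The cause of these values was not tested.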

How the results depend on the processing

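The 0 members past the adjusted threshold became 2 with DESeq2 (1033 of all genes and 31 genes of the context lists passed there), 3 with the Gm26924 share over 3% as a batch (480 and 16) and 1 with totals without mitochondrial genes and Gm26924 (289 and 5). In edgeR's main fit 150 and 2 passed. The genes of the context lists came to 0 with limma-voom and 1 each with DESeq2 size factors, library totals and no filter, where 76 (totals) and 72 (no filter) of all genes passed. With the Gm26924 share as a covariate 38 genes and 0 of the lists passed, and in the libraries under a share of 3%, 2 genes and 0 of the lists. With GC content and principal transcript length 93 genes passed.

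Members higher and lower at an unadjusted p under 0.05 numbered 7 and 4 in the main fit. They were 2 and 26 with totals without mitochondrial genes and Gm26924 (5.10% and 15.2% of all genes), 20 and 0 with GC content and length (12.0% and 7.30%), 24 and 1 with GC content and principal transcript length (11.4% and 7.65%), and 3 and 1 in the libraries under a Gm26924 share of 3% (4.81% and 4.87%). The lower ones were 2 and 7 with that share as a covariate and as a batch (8.66% and 10.3% of all genes). Biogenesis factors higher at an unadjusted p under 0.05 were 21 with totals without mitochondrial genes and Gm26924 and 12 in the libraries under 3%, instead of 38. The log2 fold change of Rpl36 turned to 0.0269 and 0.0429 with the GC and length corrections, and that of Rpl11 to 0.0012 with GC content and length. The ratio of the members' summed share was 0.918 without mitochondrial genes and Gm26924. The median level per length was 204.2 with the longest and 286.3 with the principal transcript. Over 24 alternative settings the medians of members and biogenesis factors and the length contrast moved by less than the SD of the same quantity between libraries, pooled over the 2 groups (0.17, 0.16 and 0.07), but the members' median changed sign, from -0.16 (without HFDfri 1) to 0.12 (GC content and principal transcript length), while the other medians and the contrast stayed above 0. That SD is the spread of single libraries, which is wider than the error of a difference between groups. The causes were not tested.

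Leaving out each library in turn gave 0 to 9 members past the adjusted threshold (9 without HFDfri 1), 4 to 8 higher and 1 to 32 lower at an unadjusted p under 0.05, 6 to 1106 of all genes, 0 to 36 genes of the context lists and 19 to 49 biogenesis factors higher at an unadjusted p under 0.05. The members' median ran from -0.16 to 0.03.

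Same-numbered libraries did not deviate together (0 of 4 pairs correlated over 0.1), which cannot show whether mice were paired or housed together. The numbers are those of the library titles, and matches by the sample numbers in the brackets of the titles were not checked. With the replicate block 0 members, 0 of all genes and 0 of the context lists passed, and 4 members were higher and 9 lower at an unadjusted p under 0.05, beside 9.04% and 8.80% of all genes.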

Other observations

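Summed over each list of cell markers, the groups overlapped in all 9 lists. Kupffer cell and macrophage markers ran from 116 to 235 CPM in HFDfre and from 126 to 182 CPM in HFDfri. Stellate cell and fibroblast markers ran from 127 to 198 CPM and from 102 to 178 CPM, endothelial markers from 92.8 to 112 CPM and from 70.4 to 118 CPM, and cholangiocyte markers from 25.5 to 46.6 CPM and from 23.9 to 47.0 CPM. Markers of T and NK cells (1.69 to 4.83 CPM and 0.679 to 2.20 CPM), B and plasma cells (4.02 to 12.1 CPM and 3.24 to 7.55 CPM) and neutrophils (1.07 to 3.58 CPM and 1.20 to 4.24 CPM) were low. Erythroid markers ran from 447 to 614 CPM and from 273 to 889 CPM, with 1 of 5 past the adjusted threshold. None of the markers was at 0 in all libraries.

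Myc, which drives transcription of ribosomal protein and ribosomal RNA genes, was looked at after its values were seen. It was at 12.7, 6.87, 12.5, 2.20 and 2.98 CPM in HFDfre 1 to 5 and at 1.57, 3.04, 1.89 and 1.86 CPM in HFDfri 1 to 4, a log2 fold change of -1.83 ± 0.49 (adjusted p = 0.0850). HFDfre 1 to 3 lay above all HFDfri libraries, and HFDfre 4 and 5 lay among them. Eif4ebp3, a repressor of cap-dependent translation that was also picked after its values were seen, was at 52.5 ± 10.7 and 108 ± 43.1 CPM (log2 fold change 1.04 ± 0.24, adjusted p = 0.0589).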
